A study of Homo sapiens with 9 samples.

Results

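The genes examined here are 9 markers of intestinal identity and of enterocytes: the caudal-type transcription factors CDX1 and CDX2, the villin gene VIL1, the adhesion and lectin genes CDH17 and LGALS4, the carcinoembryonic antigen (CEA) family genes CEACAM1, CEACAM5 and CEACAM6, and the fatty acid carrier gene FABP1. They were chosen by symbol, and all 9 were found among the 33861 genes of the deposited table. RNA sequencing with ribosomal RNA depletion had been done on HCT116, a human colorectal carcinoma cell line, in 3 groups of 3 libraries. The control group carries the label NC, the activin group received 100 ng/mL activin A for 5 days, and the activin + HGF group then received 20 ng/mL hepatocyte growth factor (HGF) for 5 further days. What the control cells received, and for how long they were kept, was not stated, so treatment and time in culture cannot be told apart. All libraries came from 1 cell line, and nothing states that they came from separate cultures, so the p-values measure only the spread between libraries.

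The homeobox factors CDX1 and CDX2 set intestinal identity in gut epithelium, and in adult tissue they act on the promoters of many genes of the mature absorptive cell, the enterocyte. Enterocytes carry an apical brush border of microvilli whose actin core is bundled by villin, they adhere through cadherins and members of the carcinoembryonic antigen family, and they carry absorbed fatty acids on small binding proteins in the cytosol. Many of these genes remain active in well-differentiated colorectal tumours, and several serve as markers of them.

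CDX1 (ENSG00000113722) lay at chr5:150166778-150184558 on the plus strand and CDX2 (ENSG00000165556) at chr13:27960918-27969315 on the minus strand. VIL1 (ENSG00000127831) lay at chr2:218419121-218453295 on the plus strand and FABP1 (ENSG00000163586) at chr2:88122982-88128062 on the minus strand. On chromosome 19 lay 4 members, with CEACAM5 (ENSG00000105388) at chr19:41708585-41729345 and CEACAM6 (ENSG00000086548) at chr19:41750977-41772211 on the plus strand, and CEACAM1 (ENSG00000079385) at chr19:42507304-42528481 and LGALS4 (ENSG00000171747) at chr19:38801671-38812945 on the minus strand. The build of these coordinates was not given in the sources used here, but 99.95% of the 32930 gene identifiers shared with GENCODE 29 on GRCh38 overlapped their interval there.

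Promoters are shown for CDX2, the member with the highest level, and for the CEA family. In that family CEACAM1 stood above CEACAM5 and CEACAM6 in level, and the 3 promoters resembled each other. Each line gives the 250 bases upstream of the RefSeq start on GRCh38.p14, from 5′ to 3′ on the strand of the gene, at chr13:27969316-27969565 (minus) for CDX2, chr19:42528482-42528731 (minus) for CEACAM1, chr19:41708376-41708625 (plus) for CEACAM5 and chr19:41755280-41755529 (plus) for CEACAM6. Capitals mark matches, on either strand, to the motifs TTTATG for CDX factors, AGATAA for factors of the GATA family, CAAAGT for HNF4 and CAGACA for SMAD factors.
CDX2: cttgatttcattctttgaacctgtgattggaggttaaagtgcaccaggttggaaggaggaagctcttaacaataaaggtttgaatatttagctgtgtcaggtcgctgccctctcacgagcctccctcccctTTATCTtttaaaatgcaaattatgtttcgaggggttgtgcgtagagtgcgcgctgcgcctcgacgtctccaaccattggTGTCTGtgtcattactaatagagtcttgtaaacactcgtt
CEACAM1: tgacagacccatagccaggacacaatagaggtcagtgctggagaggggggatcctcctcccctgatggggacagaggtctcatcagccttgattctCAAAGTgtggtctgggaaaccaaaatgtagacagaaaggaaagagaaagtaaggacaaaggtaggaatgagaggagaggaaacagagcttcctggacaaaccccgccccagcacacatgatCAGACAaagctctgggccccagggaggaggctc
CEACAM5: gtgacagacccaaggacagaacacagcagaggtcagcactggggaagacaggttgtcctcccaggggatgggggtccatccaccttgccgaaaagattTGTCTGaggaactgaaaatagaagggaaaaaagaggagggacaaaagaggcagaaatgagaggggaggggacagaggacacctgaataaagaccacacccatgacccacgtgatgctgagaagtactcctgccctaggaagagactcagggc
CEACAM6: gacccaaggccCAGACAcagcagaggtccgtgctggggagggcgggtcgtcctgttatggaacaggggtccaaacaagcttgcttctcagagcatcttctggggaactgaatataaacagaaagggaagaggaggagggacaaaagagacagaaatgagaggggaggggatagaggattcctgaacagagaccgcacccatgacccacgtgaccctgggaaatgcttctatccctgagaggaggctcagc
The promoter table held 6 of the 9 members, all but CDX1, VIL1 and CDH17. The RefSeq starts of CEACAM5 and CEACAM6 lie inside the intervals that the deposited table gives for these genes. In the pairwise alignments of these windows, CEACAM1 shared 64.4% of bases with CEACAM5 and 67.6% with CEACAM6, and CEACAM5 shared 73.6% with CEACAM6, whereas the other pairs shared 41.3% to 48.5%. The CDX2 window held a GATA match at bases -119 to -114 from the start and a SMAD match at -40 to -35, both on the opposite strand. The CEACAM1 window held an HNF4 match at -154 to -149 and a SMAD match at -33 to -28, and the windows of CEACAM5 and CEACAM6 each held a SMAD match only, at -152 to -147 and -239 to -234. FABP1 held a CDX match at -89 to -84. It also held a match at -108 to -103 to a further word searched, GTTAAT for HNF1, which no other member window held. LGALS4 held none of these words. Over the windows of all 35116 promoters in the table, 9.64% held the CDX word, 9.17% the GATA word and 6.23% the HNF1 word. The HNF4 word was in 10.3% and the SMAD word in 13.6%, so single matches were common and are given as descriptions of sequence alone.

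Levels differed widely within the set. CDX2 had the highest mean over the 9 libraries and stood above 79.0% of all genes in the table by mean FPKM, a level scaled to transcript length and library. CEACAM1 followed, above 58.1% of genes, then LGALS4, and CDH17 above 32.2%. CEACAM6, CEACAM5, CDX1, VIL1 and FABP1 stood above 22.8%, 21.5%, 19.1%, 16.0% and 14.1% of genes, and none of these 5 reached 0.2 FPKM in any library. A library with no count for a gene still allowed up to 3 counts, or 0.0373 to 0.0551 CPM, the counts scaled to a common library size, across the 9 libraries, and this limit covers counting error only. Low counts were also coarse, since 20 of the 32 non-zero counts of the 7 members other than CDX2 and CEACAM1 were multiples of 4, against 34.1% to 36.1% of all counts from 1 to 40 in each library.

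**Figure D1:**
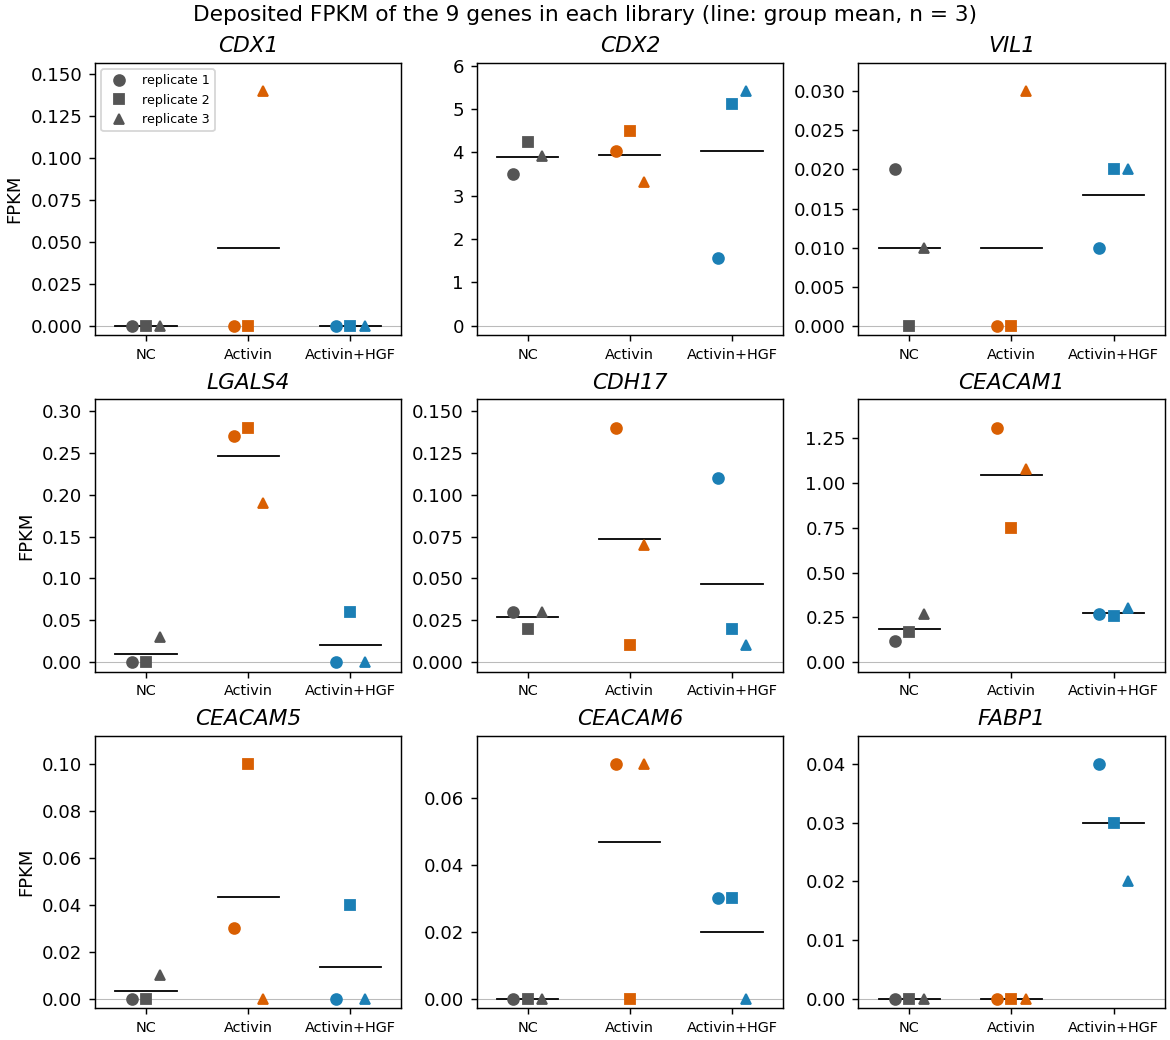
FPKM of the 9 genes in the 9 libraries, with one panel per gene, each with its own vertical axis, and the control (NC), activin and activin + HGF groups side by side. Points are libraries and horizontal lines are group means. CDX2 is near 4 FPKM in the control group with 1 low activin + HGF library at 1.57, and CEACAM1 is highest with activin, at 0.75 to 1.31.

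The libraries held 57453977 to 77016167 counts. Correlations of log2(FPKM + 0.1), over genes at 0.5 FPKM or more in at least 3 libraries, were 0.922 to 0.967 within groups and 0.811 to 0.927 between groups. Activin replicate 2 was as close to activin + HGF replicate 3 (r = 0.927) as to activin replicates 1 and 3 (r = 0.926 and 0.922). Replicate 1 of the activin + HGF group stood apart by its scaling factor of 0.783, the lowest, and by its most abundant gene, MT-RNR2, with 4.49% of counts. Differences were fitted with edgeR over all 9 libraries after TMM scaling, and a gene was called where the Benjamini-Hochberg adjusted p was under 0.05 and the log2 difference at least 1 in size.

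CDX2, the intestinal master regulator, was the only member above 1 FPKM in every library. The control group had 822, 1144 and 1239 counts, the activin group 1042, 1154 and 888, and the activin + HGF group 458, 1590 and 1607. These counts corresponded to 3.51, 4.25 and 3.92 FPKM in control, 4.04, 4.49 and 3.32 FPKM with activin, and 1.57, 5.12 and 5.41 FPKM with activin + HGF. All 3 groups overlapped, and replicate 1 of the activin + HGF group was both the lowest of all 9 libraries and separate from its other 2 replicates, which were the highest.

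Neither treatment was accompanied by a difference in CDX2 beyond the spread between libraries. Its mean level on the TMM-scaled CPM scale was 15.3 ± 1.80 in control, 14.8 ± 3.38 with activin and 18.9 ± 9.10 with activin + HGF (SD, n = 3 each). By edgeR, the log2 difference of activin against control was -0.04 ± 0.356 (SE, adjusted p = 0.954), with a 95% interval of -0.83 to 0.74. The log2 difference of activin + HGF was 0.35 ± 0.356 against activin (adjusted p = 0.552) and 0.30 ± 0.356 against control (adjusted p = 0.558). The intervals, -0.44 to 1.14 and -0.48 to 1.09, still allow changes of about the size of the fold limit, which was 1 on the log2 scale. Without replicate 1 of the activin + HGF group, the differences were 0.71 against activin (adjusted p = 0.0839) and 0.66 against control (adjusted p = 0.0555), and with limma on log2(FPKM + 0.1) over all libraries they were -0.14 and -0.13, so the sign differed between the scales and the size moved with this library.

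CDX1, the other caudal-type factor of the set, was detected in a single library. Replicate 3 of the activin group held 19 counts (0.14 FPKM), and the other 8 libraries held 0. CDX1 did not pass the filter on low counts, so it had no test, and no difference was detectable at this depth.

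VIL1, which encodes villin, was close to the limit of detection in every group. It had 8, 0 and 8 counts in control, 0, 0 and 16 with activin, and 8, 12 and 11 with activin + HGF, which is at most 0.03 FPKM. The activin libraries spanned the range of the other groups, while the activin + HGF libraries lay just above the control libraries in CPM. By edgeR the log2 differences were -0.09 ± 1.67 for activin against control (SE, adjusted p = 0.981), 1.18 ± 1.66 for activin + HGF against activin (adjusted p = 0.681) and 1.08 ± 1.66 for activin + HGF against control (adjusted p = 0.660). VIL1 overlaps USP37 on the opposite strand, which had 573 to 2373 counts per library. Whether the counting used strand was not stated, so reads from the pair cannot be told apart here.

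CDH17 (ENSG00000079112), on the minus strand at chr8:94127162-94208555, encodes liver-intestine cadherin and varied widely within the treated groups. It had 7, 6 and 12 counts in control, 39, 4 and 21 with activin, and 36, 9 and 4 with activin + HGF, corresponding to FPKM of 0.02 to 0.03, 0.01 to 0.14 and 0.01 to 0.11. A library near the control level was present in both treated groups, and all 3 groups overlapped. The edgeR log2 differences were 1.29 ± 1.08 for activin against control (SE, adjusted p = 0.467), -0.04 ± 1.05 for activin + HGF against activin (adjusted p = 0.984) and 1.25 ± 1.08 for activin + HGF against control (adjusted p = 0.414).

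LGALS4, which encodes galectin-4, a lectin of the enterocyte apical membrane, was detected in every activin library and in few others. It had 0, 0 and 8 counts in control, 47, 48 and 34 with activin, and 0, 12 and 0 with activin + HGF. These were 0, 0 and 0.03 FPKM, then 0.27, 0.28 and 0.19 FPKM, and then 0, 0.06 and 0 FPKM. The activin libraries lay above all 6 other libraries, and the control and activin + HGF groups overlapped.

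The LGALS4 difference did not pass the test, with an edgeR log2 difference of 4.08 ± 1.67 for activin against control (SE, adjusted p = 0.123, 95% interval 0.37 to 7.79) and -3.33 ± 1.61 for activin + HGF against activin (adjusted p = 0.192, interval -6.90 to 0.23). Activin + HGF differed from control by 0.75 ± 1.62 (adjusted p = 0.762). On log2(FPKM + 0.1), limma gave smaller differences with less spread, 1.66 for activin against control (adjusted p = 0.00712) and -1.56 for activin + HGF against activin (adjusted p = 0.0155), both past the thresholds. LGALS4 passed the filters on low values only through the activin group, where it was highest, so these values are given as a description and not as support for a difference.

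CEACAM1, a transmembrane adhesion receptor of epithelial and immune cells, was the only gene of the 9 that passed the edgeR test. It had 46, 74 and 137 counts in control, 537, 305 and 454 with activin, and 128, 127 and 141 with activin + HGF. In FPKM it stood at 0.12, 0.17 and 0.27 in control, at 1.31, 0.75 and 1.08 with activin, and at 0.27, 0.26 and 0.30 with activin + HGF. The activin libraries lay above all others, and the activin + HGF libraries lay between, overlapping the control range in FPKM but not in CPM.

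CEACAM1 rose with activin and was lower again after HGF. On the CPM scale the group means were 1.18 ± 0.481 in control, 6.07 ± 1.20 with activin and 2.13 ± 0.259 with activin + HGF (SD, n = 3 each). Activin against control gave a log2 difference of 2.35 ± 0.351 (SE, edgeR adjusted p = 0.00155), or 5.11-fold, with a 95% interval of 1.58 to 3.13. Activin + HGF against activin gave -1.51 ± 0.340 (edgeR adjusted p = 0.0200), or 2.85-fold lower, with an interval of -2.26 to -0.76.

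The activin comparison kept its call when any single library was left out, with log2 differences of 2.16 to 2.71. The lower level in activin + HGF lost its call without activin replicate 1 (adjusted p = 0.0748), activin replicate 3 (adjusted p = 0.0533) or activin + HGF replicate 2 (adjusted p = 0.0648), although the difference stayed between -1.64 and -1.41. On log2(FPKM + 1) by limma, where low levels are compressed, the differences were 0.78 (adjusted p = 0.00155) and -0.67 (adjusted p = 0.00749), under the fold limit.

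Against control, CEACAM1 in activin + HGF cells differed by 0.84 ± 0.340 (SE, edgeR adjusted p = 0.0833, 95% interval 0.09 to 1.60). The 3 libraries of each group did not overlap in CPM, at 0.751, 1.10 and 1.70 in control and 2.35, 1.85 and 2.20 with activin + HGF. Without control replicate 3, the highest of its group, the difference was 1.20 and passed (adjusted p = 0.0447).

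CEACAM1 also lies within LIPE-AS1, a non-coding gene of the opposite strand (chr19:42397128-42652026). LIPE-AS1 had 20, 78 and 50 counts in control, 101, 118 and 300 with activin, and 256, 328 and 376 with activin + HGF. All 6 treated libraries lay above the control libraries. The treated groups overlapped in raw counts, but in CPM the activin + HGF libraries all lay above the activin libraries. By edgeR, LIPE-AS1 differed by 1.78 for activin against control (adjusted p = 0.0358), by 1.08 for activin + HGF against activin (adjusted p = 0.170) and by 2.86 for activin + HGF against control (adjusted p = 0.00273). In GENCODE 29, 185 of the 5524 CEACAM1 exon bases (3.35%) fell in a LIPE-AS1 exon, and the part of these reads in the CEACAM1 counts was not tested.

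CEACAM5, which encodes carcinoembryonic antigen, and CEACAM6, its membrane-anchored relative, were near 0 in all groups. CEACAM5 had 0, 0 and 4 counts in control, 8, 30 and 0 with activin, and 0, 16 and 0 with activin + HGF, at most 0.10 FPKM. CEACAM6 had no count in control, 16, 0 and 17 with activin, and 8, 8 and 0 with activin + HGF, at most 0.07 FPKM. Each treated group held at least 1 library at 0 for each gene, the groups overlapped, and neither gene passed the filter.

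The close sequence of the family also bore on these counts. Of the 50-base words in the GENCODE 29 transcripts of each gene, 16.3% in CEACAM5, 6.99% in CEACAM6 and 3.29% in CEACAM1 occurred in another gene as well, whereas CDX1, CDX2 and FABP1 had none. Reads from such words could be split among family members, so the counts of all 3 are uncertain to that extent, and the part of such reads in the CEACAM1 difference was not tested. AC243967, which overlaps CEACAM5 and CEACAM6 on the same strand, had 4 counts in 1 activin library and none elsewhere.

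FABP1, the fatty acid binding protein of liver and proximal intestine, had counts in the activin + HGF group alone. The 3 libraries held 8, 6 and 4 counts, which is 0.04, 0.03 and 0.02 FPKM, and the 6 control and activin libraries held 0. The groups did not overlap, but FABP1 did not pass the filter and had no test, and each count was only a little above the limit of 3. In bulk libraries such as these, fewer cells of a type and less RNA per cell cannot be told apart.

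Of the 9 genes, 5 could be tested. In activin against control, 1 of the 5 was called higher and none lower, where 11.4% of all 20988 tested genes were called (6.78% higher and 4.62% lower). After HGF, against activin alone, 1 of 5 was called lower and none higher, against 8.09% of all genes (3.87% higher and 4.21% lower). In activin + HGF against control, 0 of 5 were called by edgeR, by DESeq2 or by limma, against 21.5% of all genes (11.3% higher and 10.2% lower). CEACAM1 was the 1 member with an unadjusted edgeR p under 0.05 there, at 0.0314. The 3 comparisons share libraries, so their values are not independent of each other.

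**Figure D2:**
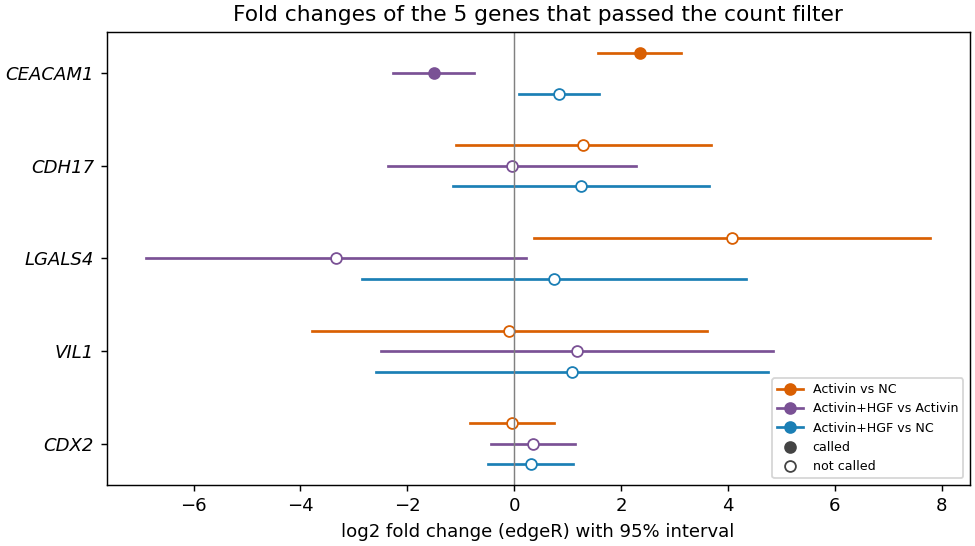
Fitted log2 differences of the 5 testable genes in the 3 comparisons, with points for the edgeR estimate and bars for the 95% interval. Filled points passed the test. Only CEACAM1 did, at 2.35 for activin against control and -1.51 for activin + HGF against activin, and the intervals of LGALS4, CDH17 and VIL1 are several log2 units wide.

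The genes whose levels over the 9 libraries ran closest to those of CDX2 and CEACAM1 were ranked by Pearson correlation of log2 CPM among 13179 tested genes with a symbol and at least 1 FPKM in some group. For CDX2 these were SYNGR2 (r = 0.977), TMEM151A (r = 0.958) and SSTR5 (r = 0.957), and 33 genes exceeded 0.9. For CEACAM1 they were AC008014 (r = 0.978), NAP1L5 (r = 0.976) and ARHGAP40 (r = 0.968), and 62 genes exceeded 0.9. The profile of NAP1L5 had group means of 2.75, 5.49 and 3.85 CPM, and that of ARHGAP40 2.18, 5.35 and 3.02 CPM, in control, activin and activin + HGF. With 9 libraries in 3 groups, such correlations describe the ordering of these libraries alone.

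The wider intestinal programme was covered by lists of factors, brush border genes, absorptive cell products, CEA family genes, galectins and fatty acid binding proteins. Of 123 genes listed, 99 were in the table and 75 were tested, and the other 24 were not analysed here. With activin, 9 were called higher and 3 lower, with a median log2 difference of 0.25 over the 75 beside 0.02 over all tested genes. After HGF, against activin alone, 3 were called higher and 1 lower (median 0.19 beside -0.04), and in activin + HGF against control 17 were higher and 4 lower (median 0.38 beside -0.04). These shares can be read against the 11.4%, 8.09% and 21.5% of all genes called in the same comparisons.

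Among 21 tested intestinal transcription factors, 3 were called higher with activin and none lower. On adjusted p alone, with no fold limit, 5 were higher and 1 was lower. KLF4, a factor of differentiated colonic epithelium, stood at 6.19, 6.04 and 2.77 FPKM in control, 35.63, 37.09 and 33.65 with activin, and 18.62, 16.58 and 31.15 with activin + HGF. It rose by 2.75 ± 0.339 with activin and by 2.44 ± 0.334 in activin + HGF against control on the log2 scale (SE, edgeR adjusted p = 0.000536 and 0.000566). Both treated groups lay above every control library. GATA6, an endodermal zinc finger factor, rose by 1.29 and 1.28 in the same comparisons (edgeR adjusted p = 0.00507 and 0.00307), and PRDM1, a repressor active in the fetal gut, by 1.33 (adjusted p = 0.0017) and 1.41 (adjusted p = 0.000737). With limma on log2(FPKM + 0.1), the activin + HGF differences from control came under the fold limit, at 0.91 for GATA6 and 0.98 for PRDM1. On log2(FPKM + 1) so did those of both comparisons, at 0.95 and 0.65 for GATA6 and 0.69 and 0.51 for PRDM1.

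With activin + HGF, 7 of the 21 factors were called higher than in control and 1 lower. KLF5, a factor of proliferating crypt cells, rose from 18.11 to 22.48 FPKM in control to 42.34 to 45.83 FPKM, by 1.37 on the log2 scale (edgeR adjusted p = 0.000159). PPARA, a nuclear receptor of fatty acid oxidation, was lower by -2.15 (edgeR adjusted p = 0.0491), but its control libraries ranged from 0.61 to 2.26 FPKM and leaving out any single library ended the call (adjusted p of 0.0524 to 0.211). GATA5, named after its values were seen, was 1 of these 7 and also gave the 1 call in activin + HGF against activin. It had 0 counts in the 6 control and activin libraries and 26, 16 and 12 with activin + HGF. It passed the filter only through that group, so neither of its calls is support for a change of the list. HNF4A, an endodermal nuclear receptor, stood at 0.22 to 0.88 FPKM over the 9 libraries and was not called.

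Among 23 brush border genes, 2 were called higher and 1 lower with activin. None was called in activin + HGF against activin, where 5 had an unadjusted edgeR p under 0.05 and 2, EZR and MYO1D, were higher on adjusted p alone. Against control, 4 were called higher in activin + HGF. MYO7B and CDHR5, named after their values were seen, were the 2 higher with activin and were among these 4. MYO7B had 0 counts in control, 33, 47 and 95 with activin, and 0, 43 and 21 with activin + HGF. CDHR5 had 0, 0 and 7, then 94, 49 and 23, then 27, 42 and 21. Both passed the filter only through treated libraries, so their calls are no support for a change of the list. EZR, which links microvillar actin to the membrane, was the most abundant at 388 to 577 FPKM, and was not called. In activin + HGF it was higher by 0.665 against activin (edgeR adjusted p = 0.0336) and by 0.716 against control (adjusted p = 0.0109). Both differences stayed under the fold limit. MYO1D, a short-tailed myosin, stood at 8.92 to 9.38 FPKM in control and 22.72 to 27.48 FPKM with activin + HGF, and rose by 1.73 ± 0.183 (SE, edgeR adjusted p = 0.000137). ESPN, an actin bundler like villin, rose by 1.26 ± 0.260 in the same comparison (adjusted p = 0.00502), from 3.38 to 4.87 FPKM in control to 7.39 to 8.70 FPKM. The ESPN difference came under the fold limit with library totals (0.97) and with limma on log2(FPKM + 0.1) (0.94) or log2(FPKM + 1) (0.81). CALML4, a calmodulin-like protein of the intermicrovillar complex, was lower with activin by -1.57 (edgeR adjusted p = 0.0351), a call that ended when any single library was left out (adjusted p of 0.0531 to 0.136). MYO1A, the classical brush border myosin, did not exceed 0.08 FPKM.

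Among 20 tested absorptive cell products, calls went both ways: 2 higher and 1 lower with activin, 2 higher and 1 lower in activin + HGF against activin, and 3 higher and 3 lower in activin + HGF against control. SLC5A1 and SLC9A3, named after their values were seen, were the 2 higher with activin. These and ANPEP were the 3 higher in activin + HGF against control. Control counts were 8 to 12 for SLC5A1 and 0 to 24 for ANPEP, so both passed the filter only through treated libraries. GPA33, called lower in both activin + HGF comparisons, had 0 counts in that group and passed only through the other groups. Calls on SLC5A1, ANPEP and GPA33 are no support for a change of the list. KRT20, a keratin of differentiated intestinal cells, had 1.94 to 2.64 FPKM in control, 0.35 to 1.21 with activin and 0.45 to 0.96 with activin + HGF, with no overlap between control and either treated group. It fell by 1.63 on the log2 scale with activin (edgeR adjusted p = 0.0203) and by 1.34 in activin + HGF against control (adjusted p = 0.0297). Without any 1 of the control libraries or activin replicate 1 the first call was lost (adjusted p of 0.056 to 0.0898), and without any 1 of the control libraries or activin + HGF replicates 1 or 3 so was the second (adjusted p of 0.0544 to 0.0906).

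DPP4, a brush border peptidase, had 1.9 to 2.1 FPKM with activin and 2.82 to 4.34 with activin + HGF, a rise of 1.23 between them (edgeR adjusted p = 0.0134), beside 2.30 to 3.41 in control. FABP6, the ileal bile acid binding protein, had 1.11 to 1.86 FPKM with activin and 2.26 to 3.65 with activin + HGF, a rise of 1.24 (adjusted p = 0.0328), beside 2.5 to 2.91 in control. Each call was lost without activin replicate 1, activin replicate 3 or 1 library of the activin + HGF group, replicate 1 for DPP4 (adjusted p of 0.0271 to 0.0644, with the difference under 1 where p passed) and replicate 3 for FABP6 (adjusted p of 0.0948 to 0.124). Both calls also ended with library totals and with limma on log2(FPKM + 0.1) or log2(FPKM + 1). The FABP6 call further ended with no filter, with the replicate block and with a fit of only the groups compared.

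Relatives of the binding proteins and lectins differed from the members themselves. FABP5, the epidermal-type fatty acid binding protein, was far more abundant than FABP1, at 85.27 to 93.07 FPKM in control, 43.37 to 50.04 with activin and 42.14 to 48.78 with activin + HGF. It fell by 1.00 on the log2 scale with activin (edgeR adjusted p = 0.00155), at the fold limit, so the call ended on leaving out any 1 of 5 of the 6 libraries. Of 3 other fatty acid binding proteins tested, FABP5 and FABP6 were the only ones called. Of 8 other galectins tested, 2 were called higher with activin, none was called in activin + HGF against activin, where 2 had an unadjusted edgeR p under 0.05, and 3 were called higher in activin + HGF against control.

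LGALS1, galectin-1, rose from 206.62 to 225.78 FPKM in control to 479.04 to 669.37 with activin and 525.22 to 616.29 with activin + HGF, by 1.33 (edgeR adjusted p = 0.00227) and 1.70 (adjusted p = 0.000364) on the log2 scale. LGALS7B had 2, 7 and 0 counts in control, 105, 104 and 90 with activin, and 243, 246 and 289 with activin + HGF. Its log2 differences from control were 4.96 (edgeR adjusted p = 0.00142) and 6.50 (adjusted p = 0.000228). It passed the filter only through treated libraries, so its calls are no support for a change of the list. Of its 50-base words, 62.0% occurred in another gene, so its identity is uncertain. Of the CEA family beyond the members, 4 of 9 listed genes were in the table and only CEACAM19 was tested. It stood at 0.71 to 1.86 FPKM and was called in none of the comparisons, and its largest difference, 0.94 in activin + HGF against control, passed on adjusted p by edgeR but stayed under the fold limit.

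**Figure D3:**
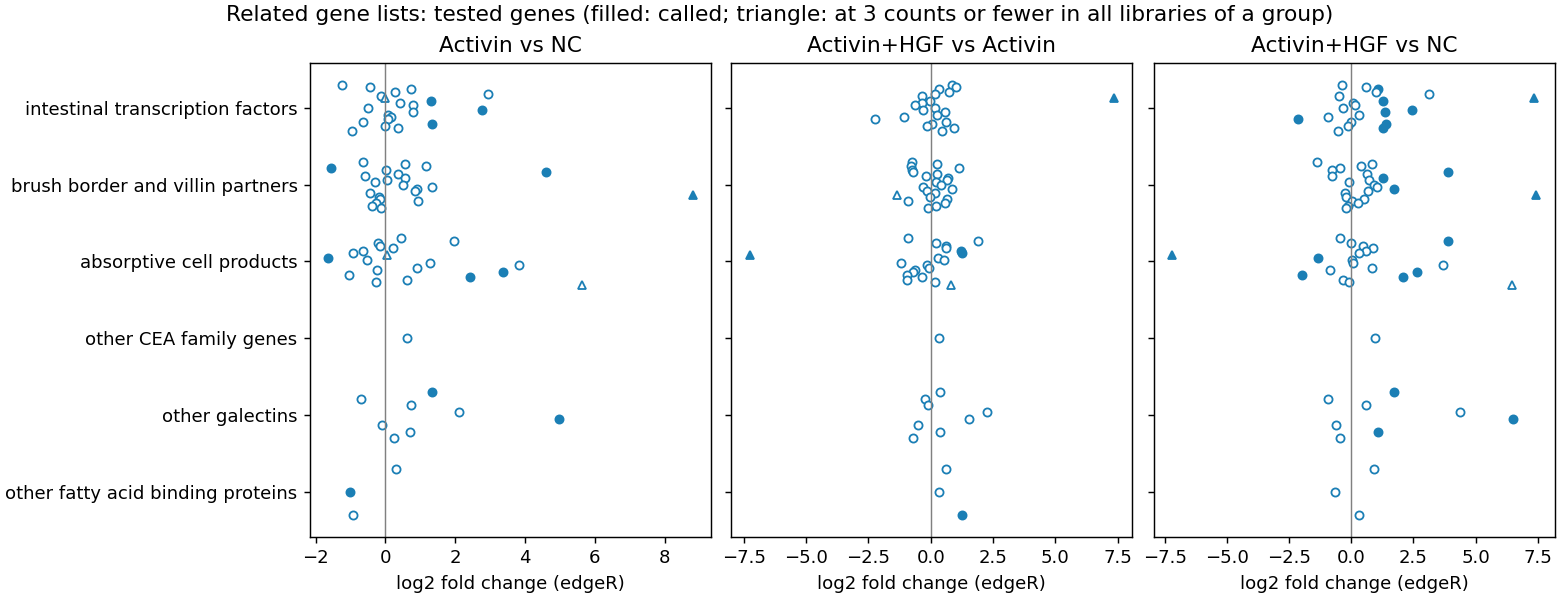
Fitted log2 differences of the tested related genes by list and comparison. Each symbol is a gene, filled where called, and triangles are genes with 3 counts or fewer in every library of a group, whose size is not bounded. Calls in activin + HGF against control, 17 higher and 4 lower of 75, exceed those in activin + HGF against activin, 3 higher and 1 lower.

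Markers of other cell types were examined beside these lists. The epithelial markers EPCAM, CDH1, KRT8, KRT18 and KRT19 each averaged at least 1 FPKM in every group, with summed levels of 551 to 870 FPKM over the 9 libraries. EPCAM was the 1 epithelial marker called, higher by 1.02 in activin + HGF against activin (edgeR adjusted p = 0.0067), and its difference came under the fold limit without activin replicate 1, activin replicate 3 or activin + HGF replicate 1 (0.88 to 0.93). The EPCAM call also ended with library totals, with a fit of only the groups compared and with both limma fits. The 13 secretory cell markers in the table summed to 0.70 to 1.07 FPKM in control, 2.89 to 3.46 with activin and 1.95 to 3.14 with activin + HGF, with 2, 0 and 4 of the 6 tested called higher and 0, 1 and 0 lower in the same order of comparisons. The 2 called higher with activin were FCGBP, by 1.47 (edgeR adjusted p = 0.00058), and LYZ, by 2.74 (adjusted p = 0.0134). FCGBP stood at 0.53 to 0.59 FPKM in control, 1.43 to 1.82 with activin and 0.98 to 1.09 with activin + HGF. LYZ stayed at or under 0.88 FPKM. SPDEF stood at 0 to 0.11, 0.21 to 0.56 and 0.53 to 1.32 FPKM in the same groups. Control counts were 8 to 19 for LYZ, 0 to 19 for SPDEF and 0 to 4 for TRPM5. These genes passed the filter only through treated libraries, so calls on them are no support for a change of the list. Other markers went the other way, with mean CPM of 0.222, 0.152 and 0.139 for MUC2 and 0.188, 0.080 and 0.051 for ATOH1 in control, activin and activin + HGF. POU2F3 was the 1 called lower. Of the 13 markers, CHGA and NEUROG3 were at 0 in every control and activin library.

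The hepatocyte list had all 10 genes in the table and 7 tested. With activin, 3 were called higher and 1 lower, beside 6.78% and 4.62% of all tested genes. None was called in activin + HGF against activin, where 1 had an unadjusted edgeR p under 0.05. In activin + HGF against control, 5 were called higher and 1 was lower on adjusted p alone, beside 11.3% called higher and 10.2% lower of all genes. APOA1 had 0 to 4 counts in control, 0 to 12 with activin and 42 to 50 with activin + HGF, and ALB had 4 to 33 in control. Both passed the filter only through treated libraries, so calls on them are no support for a change of the list. The summed level of the list was 5.40 to 5.98 FPKM in control, 4.64 to 6.68 with activin and 5.62 to 6.77 with activin + HGF. CPS1, the 1 called lower with activin, made up most of the control sum, at 4.3 to 5 FPKM. It had 2.01 to 2.21 FPKM with activin + HGF, while ALB stood at 0.01 to 0.11 and 0.22 to 0.26 FPKM in these groups. TTR was at 0 in all but 1 library. The 3 called higher with activin were SERPINA1, ASGR1 and TF. SERPINA1 stood at 0.67 to 0.84 FPKM in control, 2.27 to 3.09 with activin and 2.19 to 3.11 with activin + HGF. With activin it was higher by 1.67 on the log2 scale (edgeR adjusted p = 0.00145). The 7 gastric markers summed to 7.48 to 19.7 FPKM, nearly all of it ANXA10, which was not called with activin. Of 6 tested, 1 was called higher with activin and 1 lower in activin + HGF against control. The 1 higher was MUC5AC, with 0 counts in every control library and 23, 14 and 21 with activin. It passed the filter only through the activin group, so its call is no support for a change of the list. The 9 stromal and leukocyte markers summed to 2.79 to 6.34 FPKM, with 4 tested and 1 or 2 called in each comparison. Most of the latter sum was COL1A1, and CD3E and MS4A1 had no count in all but 1 library each. The part of any of these cell types in the values of the 9 genes was not tested.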

How the data were processed

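RNA of 9 HCT116 libraries had been sequenced in pairs of reads. Per the submitters' processing notes, cutadapt 1.9, HISAT2 2.0.4 and StringTie 1.3.4d were used, and the authors deposited 1 table with raw read counts and FPKM (fragments scaled to transcript length and library size) for each gene and library. The genome build, the annotation and the strand setting were not given in the sources used here. Its gene annotation terms were not used, and 0 sample columns were left out.

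The deposited counts were tested with edgeR 4.0.16 in R 4.3.3 (quasi-likelihood, TMM scaling, filterByExpr, all 9 libraries in 1 fit), which left 20988 of 33861 genes. The study names no test for these counts. A gene was called at an adjusted p under 0.05 and a log2 difference of at least 1. DESeq2 1.42.0 and limma 3.58.1 on log2(FPKM + 0.1) and log2(FPKM + 1), other scalings and filters, a replicate block and fits without each library served as alternatives. Dividing the counts by 4 was added after seeing the data.

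Counting intervals and floors do not cover library preparation. A single gene compared exactly between 3 and 3 libraries cannot give a two-sided permutation p below 0.1. The members and all lists were chosen with earlier results of these data known, so nothing here is independent support for them. All 9 members were named, and of the related lists a short fixed set (HNF4A, GATA6, KLF4, KLF5, KRT20, MYO1A, DPP4, and others not reported here), the most abundant gene of a list, and up to 4 called genes of the largest change with at least 1 FPKM in a group.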

Additional observations from a re-analysis of the deposited data

How the results depend on the processing

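CEACAM1 in activin against control stayed called under relative log expression, library totals, other filters, DESeq2 and counts divided by 4, and the number of members called was 1. With limma it was 2 (FPKM + 0.1, LGALS4 added) or 0 (FPKM + 1). In activin + HGF against activin the number called was 2 and 0 under these 2 settings, and 0 to 1 when a library was left out. In activin + HGF against control it was 0, or up to 1 without a library (control replicate 3). Related genes called in activin against control numbered 12, with 3 under FPKM + 1, 20 with no fold limit and 7 to 12 without a library (7 without control replicates 1, 2 or 3 or activin replicate 1). In activin + HGF against activin they numbered 4, with 2 under no filter, a filter of 1 CPM, the replicate block or a fit of only the groups compared, 1 under FPKM + 1, 10 with no fold limit, and 0 (without activin replicate 1) to 7 (without activin replicate 2), with 1 without activin replicate 3 and 2 without activin + HGF replicate 1. In activin + HGF against control they numbered 21, with 11 and 5 under limma with FPKM + 0.1 and + 1, 33 with no fold limit and 12 (without control replicate 1) to 20 without a library. The log2 difference of CDX2 changed sign: 0.016 with library totals and 0.014 and 0.012 with limma for activin against control, -0.145 and -0.082 for activin + HGF against activin and -0.131 and -0.069 against control, and it ranged from -0.24 to 0.13 without a library in the first comparison. VIL1 in activin against control was 0.031 with library totals and -5.38 to 0.55 without a library, the lowest without activin replicate 3, which left that group at 0. Without a library CDH17 ranged from -1.57 to 0.62 (without activin replicate 1) in activin + HGF against activin and from -0.28 (without activin + HGF replicate 1) to 1.72 against control, and LGALS4 from -4.30 (without activin + HGF replicate 2, which left that group at 0) to 5.02 against control. The cause was not tested. Libraries of equal replicate number did not pair (r of -0.0532 to 0.0719 over 9 pairs, 0 of them over 0.1), and the block gave CEACAM1 differences of 2.38, -1.51 and 0.87 without changing a call on a member. Of the related genes it ended the calls on FABP6 in activin + HGF against activin and on PPARA in activin + HGF against control. TMM placed the median difference of all genes at 0.02, -0.04 and -0.04, and library totals at 0.10, -0.38 and -0.30. Depth limits CDX1, VIL1, CEACAM5, CEACAM6 and FABP1, whose counts were few.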
